A study of Homo sapiens with 4 samples.

Results

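SW1990, a human pancreatic adenocarcinoma cell line, was separated into cells that carried CD166 on their surface and cells that did not, and the RNA pools of both were compared on expression bead arrays. The comparison takes in every gene named by the platform annotation that was detected, at a detection p under 0.01 against the negative control beads, on the CD166+ or the CD166- array. This held for 10783 of 20044 named genes, of which 8504 were detected on both arrays, 1323 on the CD166+ array alone and 956 on the CD166- array alone. The series holds 4 arrays in all, CD166+ and CD166- cells of SW1990 and of Panc-1, a second pancreatic cancer line, with 1 array for each population. Cells were labelled with a phycoerythrin-coupled antibody against CD166 and taken up by magnetic beads, and the CD166- cells were those left after depletion of labelled cells. No treatment, dose, time or genetic modification was given for either population, and the labels name SW1990 for both. Whether both arrays hold cells of that line could not be checked from the labels. Total RNA of cultured cells was amplified and labelled with biotin. With 1 array a side the folds below have no replicate error, no p-value was computed, and the number of arrays limits the precision.

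The SW1990 arrays stood further apart than the Panc-1 arrays. Over 11640 genes detected on any array, log2 signals of the SW1990 CD166+ and CD166- arrays had a Pearson correlation of 0.827, against 0.989 for the Panc-1 arrays. The SW1990 CD166- array correlated at 0.874 and 0.872 with the Panc-1 arrays of CD166+ and of CD166- cells, which is higher than with the other SW1990 array. The SW1990 CD166+ array correlated at 0.834 and 0.817 with the same arrays. Genes over 2-fold apart and detected on the brighter array made up 27.7% of those detected between the SW1990 arrays. Between the SW1990 CD166+ array and the Panc-1 arrays of CD166+ and CD166- cells they made up 27.0% and 28.4%. For the SW1990 CD166- array the shares were 22.3% and 22.7%. These correlations and shares run across genes of single arrays, and genes are no replicates. Mean intensity before normalization was 413 on the CD166+ and 325 on the CD166- array, and 16190 and 15565 of 47315 probes were detected. What part the identity or growth of the cells, the separation or the single arrays had in the gap was not tested.

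CD166, encoded by ALCAM, is a cell surface protein of the immunoglobulin superfamily that binds CD6 and other CD166 molecules and holds neighbouring cells together. It has been used to sort stem-like cells from tumours of the colon and prostate. Pancreatic ductal carcinoma arises from duct-type epithelium, whose cells carry keratins, EpCAM and mucins, and its lines range from epithelial to mesenchymal states.

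ALCAM, which encodes the protein used for the separation, gave a normalized signal of 293 in CD166+ cells and 47.3 in CD166- cells, both detected, a 6.20-fold difference or 2.63 on the log2 scale. The CD166- signal lay close to the lowest detected signal of that array, 41.5, and without background correction the log2 fold was 1.63. The same probe read 235 and 44.3 in Panc-1 CD166+ and CD166- cells. The other genes given as markers of the comparison had larger folds. BASP1, which encodes a membrane-bound signal protein first found in neurons, read 10050.5 against 101, and CRIP1, which encodes a small LIM domain protein, 10784 against 130.04. STMN3, a stathmin that binds tubulin, read 78.97 in CD166+ and 12088 in CD166- cells, and PLAU, the urokinase plasminogen activator, 54.4 and 3033. Some markers of ductal carcinoma were detected in both populations: KRT8 was 4257 and 4691, KRT19 1862 and 741, and MUC1 2634 and 1136 in CD166+ and CD166- cells. EPCAM was 365 and 99.8 and KRT7 1991 and 58.9. Others, such as CDH1, CEACAM5, CEACAM6, MUC4 and GATA6, were detected on neither array. In a pool of cells, a lower signal can come from fewer cells that carry the RNA or from less RNA per cell, and these cannot be told apart here.

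**Figure D1:**
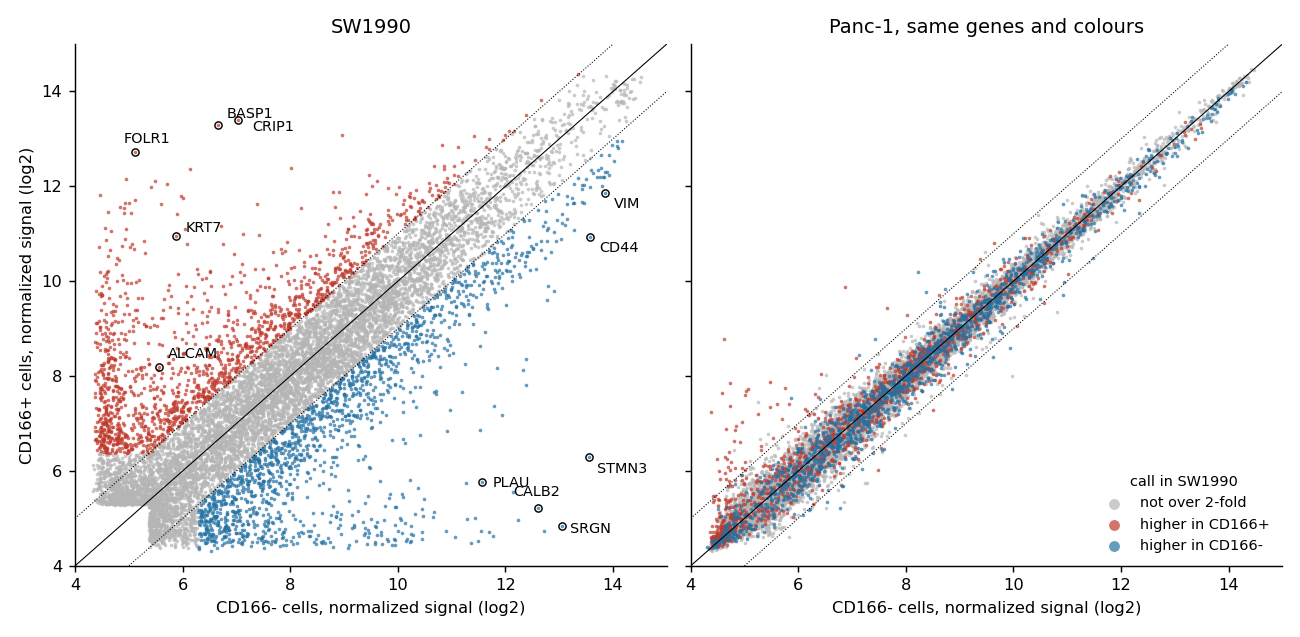
Normalized signals on the log2 scale in CD166- cells (horizontal) and CD166+ cells (vertical), one point for each of the 10783 genes detected in SW1990, for SW1990 on the left and Panc-1 on the right. Solid lines mark equal signals and dotted lines 2-fold differences. Red points are over 2-fold higher in SW1990 CD166+ cells and blue points in SW1990 CD166- cells, and in Panc-1 nearly all of them lie between the dotted lines.

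A gene was counted when its signals differed by more than 2-fold and the brighter array detected it. By this rule 1462 genes were higher in CD166+ cells against 1530 in CD166- cells, which is 13.6% and 14.2% of the genes detected, or 27.7% together. With each array scaled to a common median in place of quantile normalization the counts were 2218 and 1145, and the median of all genes stood at 0.21 on the log2 scale. In Panc-1 the same rule counted 63 genes (0.598%) and 43 genes (0.408%), or 1.01% of 10532 together. More than 8-fold separated 200 genes higher in CD166+ cells and 139 higher in CD166- cells, and more than 32-fold 39 and 25. The median log2 fold over all detected genes was -0.0019, with quartiles at -0.59 and 0.55. Genes detected on 1 array alone made up 519 of those higher in CD166+ cells and 383 of those higher in CD166- cells. For these the undetected side took the lowest normalized signal of any detected probe of its array, 39.1 for CD166+ and 41.5 for CD166- cells, or to its own signal where higher, and the fold is a lower bound. At the edge of detection, 32 genes had their lower detection p at 0.00909 and were kept, with a higher signal of 39.1 to 41.8, and 73 at 0.0104 were left out, with 38.2 to 41.5. Among 1985 genes with several probes detected on both arrays, the log2 folds of probes of the same gene had a pooled SD of 0.44. Where a counted gene had another such probe, the other probes pointed the same way for 401 of 445 genes and were also over 2-fold for 254.

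The largest folds toward CD166+ cells belonged to genes of varied function. Among genes detected on both arrays, C4BPB, a chain of the complement inhibitor C4b-binding protein, read 4054 in CD166+ and 42.6 in CD166- cells. AKR1C3, a steroid and prostaglandin reductase, read 5283 and 70.8, and BST2, the interferon-induced protein tetherin, 3144 and 48.7. GCHFR, the feedback regulator of GTP cyclohydrolase, was at 3564 and 62.9. These folds ran from 56.7 for GCHFR to 95.1 for C4BPB. The CD166- signals of C4BPB and BST2 lay close to the lowest detected signal of that array, 41.5. The other probe of C4BPB was not detected in CD166- cells. LDHB, the lactate dehydrogenase subunit of oxidative tissues, read 3445 against 64.2, and TENT5A, a poly(A) polymerase, 2718 against 59.6. NDRG1, a stress-induced gene that is raised in hypoxia, was 2186 and 65.7. FSCN1 encodes fascin, which bundles actin in cell protrusions. It read 5381 in CD166+ and 259 in CD166- cells, while CKB, the brain-type creatine kinase, read 2279 and 105.

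Other genes were detected in CD166+ cells alone. FOLR1, the folate receptor alpha, read 6768 in CD166+ cells and 34.5 in CD166- cells, at least 163-fold higher. MSLN, the tumour antigen mesothelin, read 3029 against 28.4, and TSPAN8, a tetraspanin of carcinoma cells, 2995 against 29.98. KYNU, kynureninase of tryptophan breakdown, read 3605 and 21.96, and its other probe also detected it in CD166+ cells alone. S100P, a calcium-binding protein often raised in pancreatic cancer, read 2827 and 24.5. SERPINB5, or maspin, was 2208 and 30.7. The scavenger receptor gene OLR1 read 2773 and 32.7, the vascular GTPase-binding gene RASIP1 3343 and 34.6, and the fatty acid transporter gene SLC27A2 2145 and 25.4. The extracellular matrix genes MFAP5 and EFEMP1 read 2761 and 1885 in CD166+ cells and 30.2 and 30.4 in CD166- cells. In CD166- cells all of these signals were in the range of undetected probes.

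The largest folds toward CD166- cells were found, beside STMN3 and PLAU, in genes of membrane, secreted and regulatory proteins. CMTM7, a tetraspan membrane protein of the chemokine-like family, read 47.1 in CD166+ and 4522 in CD166- cells, a 96.02-fold difference, and its other probes were detected in CD166- cells alone. GPAT3, an acyltransferase of triglyceride synthesis, was 53.4 and 2456. CXCL1, a neutrophil chemokine, read 49.8 and 1326, and VGF, a neuropeptide precursor, 116 and 2969. SPRY2, a feedback inhibitor of receptor tyrosine kinase signalling, read 43.5 and 1096. ERRFI1, which inhibits the EGF receptor, was at 166 in CD166+ and 3527 in CD166- cells. IGF2BP2, an mRNA-binding protein, read 56.2 and 1203, and ADGRG6, an adhesion G protein-coupled receptor, 43.1 and 916. The CD166+ signals of CMTM7, SPRY2 and ADGRG6 lay close to the lowest detected signal of that array, 39.1.

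A further group was detected in CD166- cells alone. SRGN, the proteoglycan serglycin, read 28.6 in CD166+ and 8531 in CD166- cells, at least 218-fold higher in the latter, and its other probe read in the same way. CALB2, the calcium buffer calretinin, was 37.1 and 6256, although its other probe was detected on both arrays at 43.7 and 53.6. ALDH1A1, an aldehyde dehydrogenase used to mark stem-like tumour cells, read 31.05 and 4839. TNFSF4, the T cell costimulator OX40 ligand, read 26.4 and 3301, KLK6, a kallikrein protease, 32.1 and 2770.1, and RGS4, an inhibitor of G protein signalling, 22.2 and 2621. Neither Panc-1 population had a detected signal for CALB2, ALDH1A1, TNFSF4, KLK6 or COL1A2. MAGED1 read 26.7 and 2984 in SW1990 CD166+ and CD166- cells and 4812 and 4804 in Panc-1, and MLPH, a melanosome transport adaptor, 26.5, 1912, 2454 and 1984 in the same order.

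Some of the brightest probes among the genes over 2-fold apart disagreed with other probes given the same gene name. GABPB2 read 7953 in CD166+ and 18321 in CD166- cells by its brightest probe and 56.5 and 63.1 by its other probe. LILRB3 read 7344 and 17184 by its brightest probe, and its other probe was detected on neither array. GJC1, AKR1D1 and KCNH6 had the same form, with bright probes 2.41-, 2.17- and 2.80-fold higher in CD166- cells and other probes that were dim or not detected. Whether these probes read the named gene was not tested, and no level of these genes is drawn from them.

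**Figure D2:**
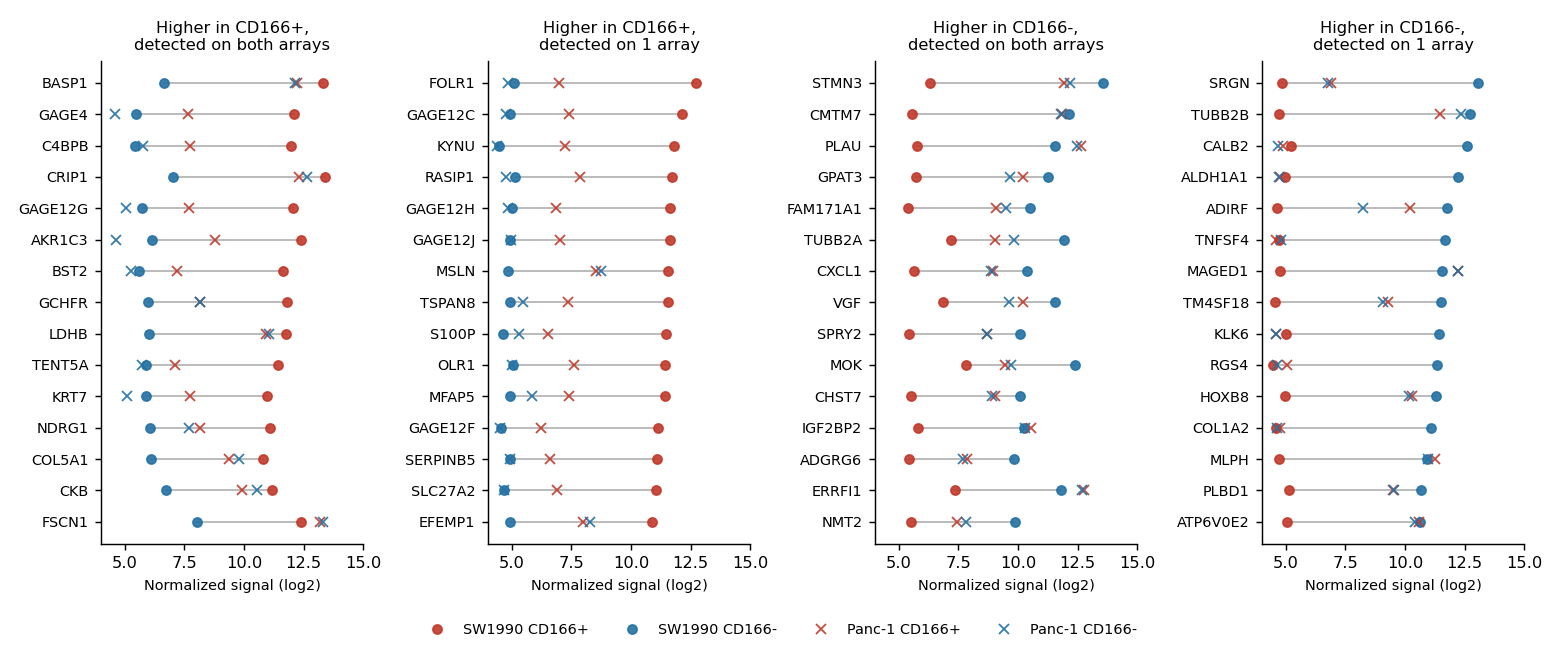
Normalized signals on the log2 scale (horizontal) of the 15 genes with the largest fold and the 15 with the largest lower bound of the fold in each direction, ordered by that fold. Circles are SW1990 and crosses Panc-1, red CD166+ and blue CD166- cells. Panels part the genes by direction and by detection on both arrays or on 1. In the left pair of panels the SW1990 CD166- point is the low one and in the right pair the CD166+ point, with FOLR1 at 6768 against 34.5 and SRGN at 28.6 against 8531 on the linear scale.

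Genes were then taken by function, in 55 lists of 1366 genes, of which 1269 were named by the annotation and 886 were detected in SW1990. Each count below is to be read beside the 13.6% and 14.2% of all detected genes that were higher in CD166+ and CD166- cells. Epithelial genes lay to the CD166+ side. Of 27 named genes of the epithelial surface and cell junctions, 19 were detected, 8 were over 2-fold higher in CD166+ cells against 0 in CD166- cells, and the median log2 fold was 0.79. The desmosomal cadherin DSG2 read 1119 against 29.4, not detected in CD166- cells, and JUP, the plakoglobin that links desmosomes to keratin, 1136 against 77.5. The tight junction claudins CLDN7 and CLDN1 were detected in CD166+ cells alone, at 176 and 141. CDH1, which encodes E-cadherin, was detected on neither array, at 35.4 and 29.3. Of 7 detected keratins 5 were higher in CD166+ cells against 0 in CD166- cells. The ductal keratin KRT7 read 1991 and 58.9, a 33.8-fold difference, KRT16 828 and 22.4, and KRT10 3013 and 453, while KRT18 and KRT19 differed by 2.32- and 2.51-fold and KRT8 had a log2 fold of -0.14.

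Mucins and secreted duct products followed the keratins, with 7 of 13 detected genes higher in CD166+ cells, 0 in CD166- cells and a median of 1.21. SLPI, a secreted inhibitor of leukocyte protease, read 1472 against 24.3, and MUC16, the mucin that carries CA125, 1021 against 27.3. LCN2, an iron-siderophore carrier, was 484 and 56.99, and PSCA, prostate stem cell antigen, 301 and 25.4. Among regulators of epithelial and pancreatic lineage only 6 of 22 named genes were detected, 3 higher in CD166+ cells against 2 in CD166- cells. ELF3, an epithelial ETS factor, read 529.9 and 40.1 and the pioneer factor FOXA1 162 and 34.4, whereas SOX9, a factor of the pancreatic duct, was at 27.7 in CD166+ and 565 in CD166- cells. SOX9 was thus at least 14.5-fold higher in CD166- cells, opposite to ELF3 and FOXA1. EHF, a further ETS factor, lay on the side of SOX9, with a log2 fold of -1.07.

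**Figure D3:**
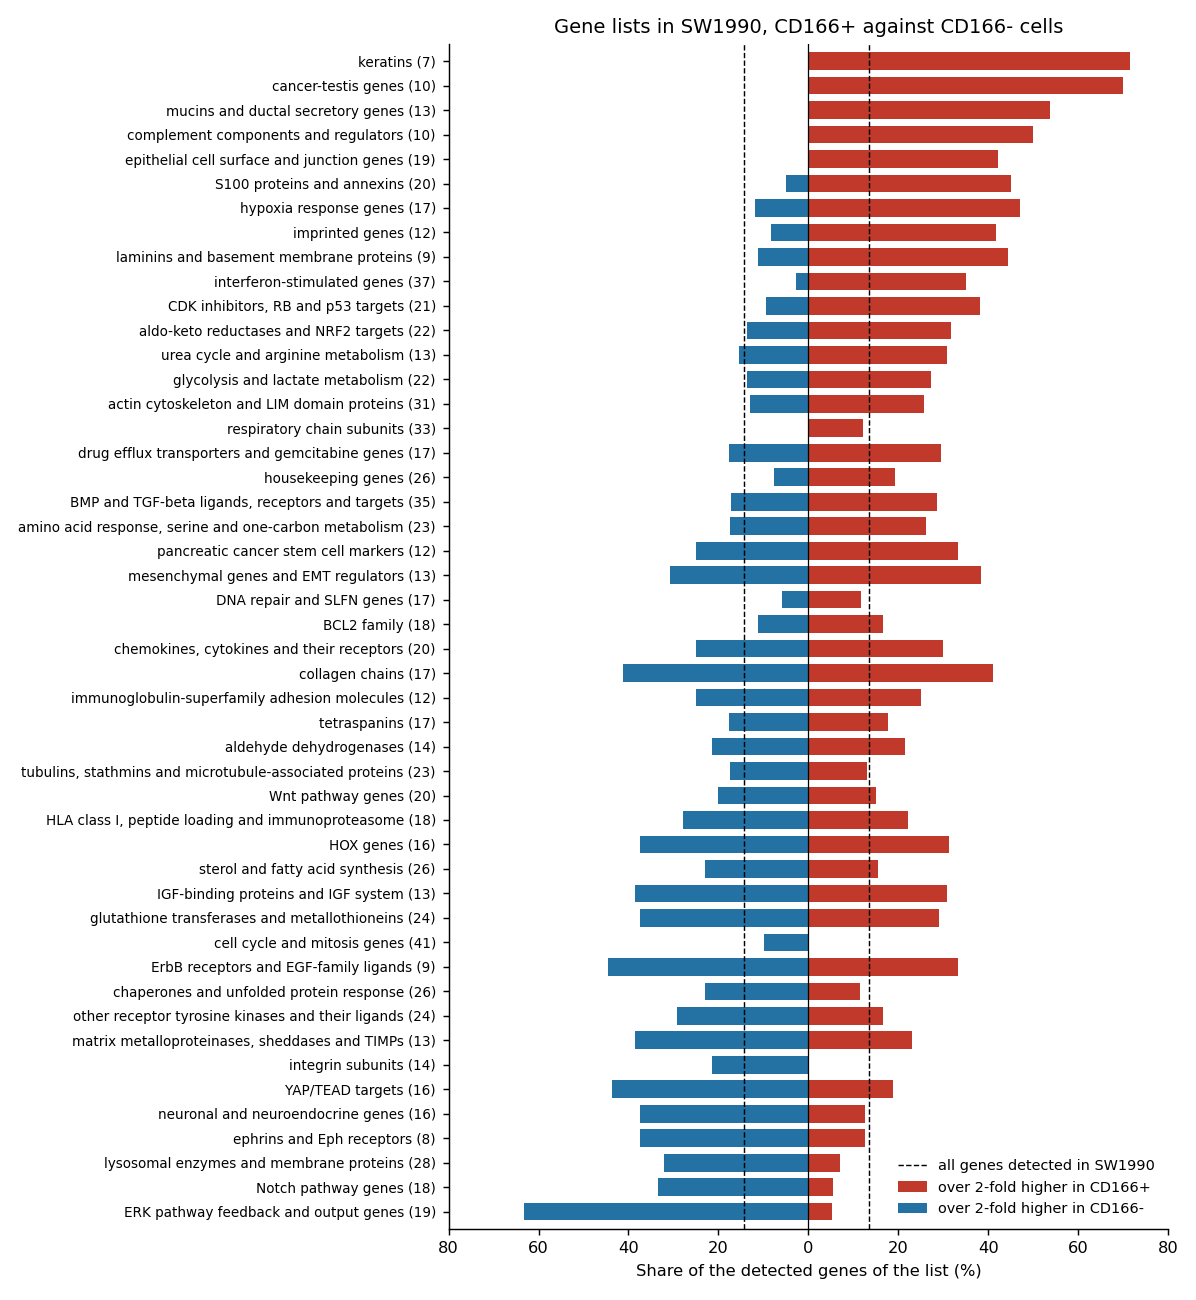
Share of the detected genes of each list, in percent, that was over 2-fold higher in CD166+ cells (red, to the right) and in CD166- cells (blue, to the left), for lists with at least 7 detected genes, whose number stands after the name. Dashed lines mark the shares over all detected genes, 13.6% and 14.2%. Keratins and cancer-testis genes stand at the CD166+ end and ERK pathway output genes at the CD166- end.

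Mesenchymal genes did not lie on one side. Of 13 detected, 5 were higher in CD166+ cells against 4 in CD166- cells, and in the scaled table deposited beside the raw intensities 2 and 4. CDH2, N-cadherin, read 362 against 30.9 and ACTA2, smooth muscle actin, 328 against 26.7, both detected in CD166+ cells alone. VIM, vimentin, read 3708 in CD166+ and 14717 in CD166- cells, TGFBI, a TGF-beta-induced matrix protein, 384 and 1847, and the receptor tyrosine kinase AXL 775 and 2512. ZEB1, a repressor of E-cadherin, was detected on neither array, at 22.8 and 21.4, and neither was the gelatinase MMP2, at 23.6 and 24.8. Surface markers that have been used to sort pancreatic cancer stem cells split as well: CD24 read 865 and 22.5, CXCR4, a chemokine receptor, 254 and 21.1, and CD44, the hyaluronan receptor, 1940.2 and 12239. CD24 favoured CD166+ cells by at least 20.8-fold and CD44 CD166- cells by 6.31-fold. PROM1, which encodes CD133, was not detected, at 28.9 and 21.98.

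The extracellular matrix showed an exchange of chains. Of 17 detected collagen chains 7 were higher in CD166+ cells against 7 in CD166- cells, so that 3 stayed within 2-fold. The fibril collagen chain COL5A1 read 1767 in CD166+ and 67.9 in CD166- cells, and its partner COL5A2 114 and 1936. Likewise COL1A1 was 218 and 24.9, detected in CD166+ cells alone, and COL1A2 24.3 and 2148, detected in CD166- cells alone. The named chains of type I and of type V collagen therefore lay on opposite sides. The basement membrane chains COL4A5 and COL4A6 were detected in CD166+ cells alone, at 955 and 428, and COL7A1, of anchoring fibrils, read 1313 against 137. All chains of type VI collagen on the list, COL6A1, COL6A2 and COL6A3, were detected in CD166- cells alone, at 282, 184 and 388, and so was COL18A1 at 1196.

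Laminin chains lay toward CD166+ cells, with 4 of 9 detected genes higher there against 1 in CD166- cells. LAMB3, of the epithelial laminin 332, read 969.8 and 53.8 and LAMA1 418 and 21.1, while LAMB2 was 22.5 and 192. Integrin subunits, the receptors for these chains, gave 0 of 14 higher in CD166+ cells against 3 in CD166- cells, a balance that turned to 3 and 2 with median scaling of the arrays. ITGB1, the common beta chain, read 2493 and 7978. Of the plasminogen system, PLAUR, the urokinase receptor, was 416 and 180.2, with its other probes the same way but within 2-fold, and opposite in direction to its ligand PLAU, which was 55.8-fold higher in CD166- cells. Of 13 detected metalloproteinases, sheddases and their inhibitors, 3 were higher in CD166+ cells against 5 in CD166- cells, or 3 against 2 when the probes of a gene were averaged. The protease gene ADAMTS1 read 218 in CD166+ and 32.4 in CD166- cells, with MMP28 found in CD166+ cells alone, at 118, and the inhibitor TIMP4 at 148 against 24.4. The sheddases ADAM9, ADAM10 and ADAM17 were 3.67-, 2.64- and 2.27-fold higher in CD166- cells, and the other probes of ADAM17 differed by 1.53- and 1.11-fold.

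Cell adhesion proteins related to CD166 were looked at beside it. Of 12 detected adhesion molecules of the immunoglobulin superfamily, 3 were higher in CD166+ cells against 3 in CD166- cells. ALCAM, NCAM2 and ICAM3 were those higher in CD166+ cells, NCAM2 at 138 against 22.1 and ICAM3, a ligand of leukocyte integrins, at 612 against 239.5. Those higher in CD166- cells were JAM3, NECTIN2 and PVR, with log2 folds of -4.29, -2.00 and -1.64. JAM3 had the largest fold of the list, beyond that of ALCAM at 2.63. PVR, the poliovirus receptor of the nectin family, read 209.7 in CD166+ and 652 in CD166- cells. Tetraspanins, which organise integrins and adhesion proteins in the membrane, also gave 3 and 3 of 17 detected. TSPAN6 read 565 and 23.8 and CD9 440.4 and 1019.8, so that TSPAN6 was with TSPAN8 on the CD166+ side and CD9 on the other. All 4 detected genes of the galectin list passed 2-fold: LGALS3 read 323 and 129.7, LGALS1 4176 and 11289, and LGALS8 30.3 and 193, beside LGALS3BP below. The probes of LGALS3 pointed in opposite directions, and a further probe of LGALS8 read 90.98 and 88.5, detected on both arrays, so that both genes rest on the probe chosen.

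Markers of fibroblasts, leukocytes, endothelium and normal pancreas were read beside these genes. Of 18 fibroblast and stellate cell markers 5 were detected in CD166+ and 2 in CD166- cells, with summed signals of 4353 and 2889.6, led by MFAP5 and COL1A2. The defining markers DCN, LUM, FAP and PDGFRA were not detected on either array, and PDGFRB, a marker of pericytes and stellate cells, read 131 in CD166+ and 23.7 in CD166- cells. Leukocyte and endothelial markers, 21 in number, summed to 926 and 1435, with CD68 the largest part, at 387 and 860.5. Another probe of CD68 read 307 and 413, within 2-fold, so that the size of its difference rests on the probe chosen. PTPRC, CD3D, LYZ and VWF were not detected. Of 15 endocrine and acinar markers 1 was detected, the lipase gene CEL, at 199 in CD166- cells.

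Interferon-stimulated genes, which act against viruses and are switched on through ISGF3 and IRF factors, were mostly on the CD166+ side. Of 37 detected, 13 were over 2-fold higher in CD166+ cells against 1 in CD166- cells, with a median of 0.72, and 29 had a fold above 1. Many promoters of such genes hold the core of the interferon-stimulated response element (ISRE), here searched as GAAANNGAA on both strands in the window from 250 bases before to 50 after the start (RefSeq, GRCh38.p14). The stretches below show it, in capitals with every match in the stretch, one of them cut by the edge of the IFITM1 stretch, for genes that were higher in CD166+ cells and, in the last pair, for genes that stayed within 2-fold.
BST2, chr19:17405716-17405784, minus strand: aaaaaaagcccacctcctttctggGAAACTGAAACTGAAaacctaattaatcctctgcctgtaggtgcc
MX1, chr21:41420539-41420607, plus strand: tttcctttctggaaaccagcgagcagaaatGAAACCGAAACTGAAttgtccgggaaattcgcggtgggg
IFI27, chr14:94110611-94110679, plus strand: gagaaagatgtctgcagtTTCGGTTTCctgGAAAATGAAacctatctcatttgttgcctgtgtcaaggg
OAS3, chr12:112938432-112938500, plus strand: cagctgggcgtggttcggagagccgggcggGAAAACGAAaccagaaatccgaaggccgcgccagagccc
HERC5, chr4:88457016-88457084, plus strand: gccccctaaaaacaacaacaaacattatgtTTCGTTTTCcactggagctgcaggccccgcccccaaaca
LGALS3BP, chr17:78979943-78980011, minus strand: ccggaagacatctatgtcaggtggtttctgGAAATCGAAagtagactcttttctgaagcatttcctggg
ISG15, chr1:1013366-1013434, plus strand: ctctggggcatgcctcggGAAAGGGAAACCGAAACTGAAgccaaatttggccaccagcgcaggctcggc
IFITM1, chr11:314004-314072, plus strand: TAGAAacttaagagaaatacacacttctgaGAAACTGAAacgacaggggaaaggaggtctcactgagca
A match is a description of the letters and not a site shown to be bound. It was found in 10 of the 13 promoters of interferon-stimulated genes higher in CD166+ cells, in 9 of 18 of those that were not, and in 8.29% of all promoters. Over all genes higher in CD166+ cells the share was 6.18%, against 6.52% of genes within 2-fold.

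Within the group, MX1, a GTPase that blocks virus replication, read 669 against 35.5, HERC5, the ligase for ISG15, 526 against 23.7, and IFI27 228 against 21.5, each detected in CD166+ cells alone. OAS1, an RNA sensor, was 411 and 47.2, and its other probes that detected it did so in CD166+ cells alone. LGALS3BP, a secreted galectin ligand, read 961 and 66.5, and PARP14 260.3 and 44.4. Other classical members stayed within 2-fold: ISG15 read 976 and 724, IFIT1 320.03 and 228, IFITM1 1832 and 1549 and IFI6 928 and 507. The members thus ran from BST2, 64.6-fold higher in CD166+ cells, to these with little difference. UBE2L6, the conjugating enzyme for ISG15, was the member higher in CD166- cells, at 42.2 against 207.

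Complement genes also lay toward CD166+ cells, with 5 of 10 detected genes higher there against 0 in CD166- cells. Beside C4BPB, CFB, the factor B of the alternative pathway, read 532 and 33.6, and CD55, which shields cells from complement, 1049 and 82.5. Antigen presentation was divided, with no side kept by the list under every normalization. The immunoproteasome subunit PSMB8 read 1392 against 28.1 and B2M, the light chain of HLA class I, 7046 against 3328, whereas HLA-E was 708 and 1819. The peptide transporter TAP2 read 71.6 and 263 by the probe chosen and 180.4 and 170.3 by its other probe. Among chemokines and cytokines, CXCL1, CXCL2 and CXCL8, ligands of the neutrophil receptors, were all higher in CD166- cells, while the list as a whole had 6 of 20 detected genes higher in CD166+ cells against 5 in CD166- cells, or 4 and 5 in the scaled table. CXCL8 was at 38.2 in CD166+ and 869 in CD166- cells and CXCL2 at 87.1 and 225. IL20RB, a receptor chain for interleukin 20, read 819 and 54.9, and IL6 was detected in CD166+ cells alone, at 95.5.

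Among lists with at least 7 detected genes, that of the ERK pathway had the largest share on the CD166- side. Of 19 detected feedback and output genes of the ERK pathway, 12 were over 2-fold higher in CD166- cells against 1 in CD166+ cells, and the median log2 fold was -1.66. Over the other normalizations, filters and probe rules tried, the count in CD166- cells stayed between 10 and 12. The Sprouty genes SPRY1, SPRY2 and SPRY4, inhibitors that ERK itself induces, read 31.5, 43.5 and 23.6 in CD166+ cells and 722, 1096 and 1149 in CD166- cells. ETV5, an ETS factor downstream of ERK, was 27.7 and 671, and its relative ETV4 31.2 and 123. The AP-1 subunit gene FOSL1 read 51.9 and 372, EGR1 46.9 and 206, and PHLDA1 156 and 1996. FOS ran the other way, at 166 in CD166+ and 30.3 in CD166- cells. MYC and DUSP5 stayed within 2-fold, with log2 folds of 0.30 and 0.44, and the phosphatase genes DUSP4 and DUSP6 were detected on neither array.

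Receptors and ligands upstream were divided between the populations. ERBB2 read 442 and 1308 and ERBB3 175 and 57.1, so that the receptors that pair with each other lay on opposite sides. Of the EGF-family ligands, HBEGF and EREG were higher in CD166- cells, at 239.7 and 116 against 40.3 and 27.1, and NRG4 and TGFA were detected in CD166+ cells alone, at 442 and 86.3. MST1R, the receptor RON, was detected in CD166+ cells alone, at 242, and the orphan receptor ROR1 read 24.9 and 325, although another of its probes read 46.6 and 30.4 and was detected in CD166+ cells alone. The Eph receptors EPHA2, EPHA4 and EPHB4 read 119, 25.03 and 149 in CD166+ cells and 726, 1237 and 734 in CD166- cells. EFNA1, a ligand of the EPHA receptors, was on the other side, at 1273 against 307.

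Notch and YAP genes also leaned toward CD166- cells. Of 18 detected Notch pathway genes 6 were higher in CD166- cells against 1 in CD166+ cells. The ligands JAG1 and JAG2 read 32.9 and 358 in CD166+ cells and 1419 and 2080.2 in CD166- cells, and the receptors NOTCH1 and NOTCH3 499 and 26.04 against 1487 and 234. HEY1, a target of Notch, was the exception, at 214 in CD166+ and 28.7 in CD166- cells. Its other probe, also detected in CD166+ cells alone, read 40.97 and 33.6, so that the size of its fold rests on the probe chosen. Of 16 detected targets of YAP and TEAD 7 were higher in CD166- cells against 3 in CD166+ cells. CCN1, a secreted matricellular protein, was 330.2 and 5334, and NT5E, the ectonucleotidase CD73, 29.2 and 981, while WWC1 and F3, the tissue factor, were 4.07- and 4.24-fold higher in CD166+ cells.

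**Figure D4:**
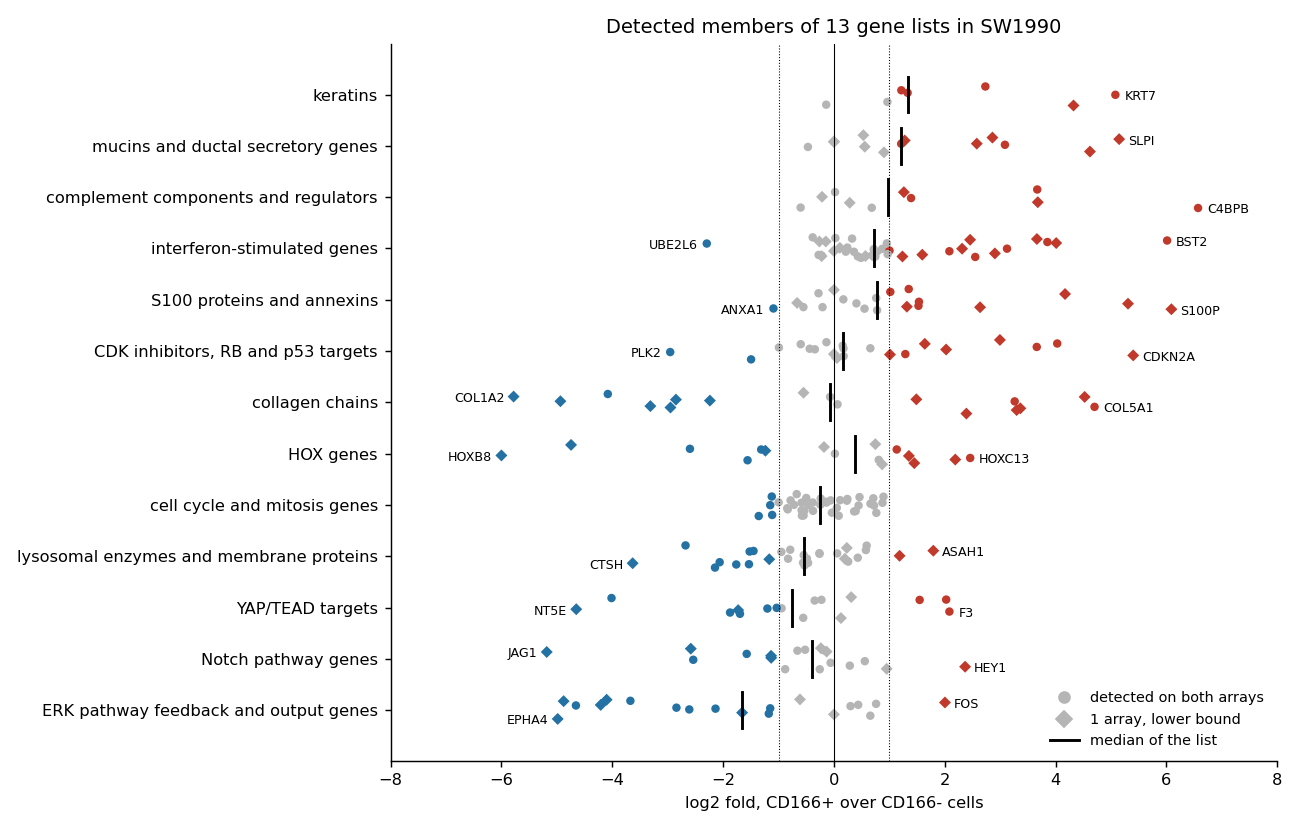
The log2 fold, CD166+ over CD166- cells, of every detected member of 13 gene lists, with red and blue for genes over 2-fold higher in CD166+ and CD166- cells, diamonds for lower bounds and a black bar for the median of the list. Vertical dotted lines mark 2-fold. The median of the ERK list lies at -1.66 and that of the keratins at 1.33, while collagen chains and HOX genes spread to both sides.

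Ligands of the BMP family were split by gene. BMP5, BMP6 and BMP2 read 862, 349.6 and 167 in CD166+ cells and 30.5, 79.4 and 24.6 in CD166- cells, while BMP7 was detected in CD166- cells alone, at 349.7 against 22.8. Of the targets, SMAD6 and SMAD7, which inhibit the pathway, were higher in CD166+ cells, 3.40-fold and at least 2.78-fold, and ID2, a target and blocker of differentiation factors, 4.78-fold higher in CD166- cells. TGFBR2, a receptor of TGF-beta, was detected in CD166+ cells alone, at 152. In the Wnt pathway, WNT5A read 196 and 22.2 and the inhibitor NKD2 22.9 and 902. IGF-binding proteins, which hold IGF outside the cell, exchanged members: IGFBP3 was 1307 and 26.96 and IGFBP4 22.6 and 428. Insulin receptor substrates did so as well, with IRS2 3.50-fold higher in CD166+ cells and IRS1 at least 4.66-fold higher in CD166- cells.

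Cytoskeletal and calcium-binding proteins gave some of the largest single differences. S100 proteins and annexins lay toward CD166+ cells, with 9 of 20 higher there against 1, ANXA1, in CD166- cells. Beside S100P, S100A16 read 1644 and 34.3 and ANXA3 748 and 23.2. Tubulins were exchanged by isotype. TUBA4A read 1719 in CD166+ and 29.2 in CD166- cells, whereas TUBB2A was 145 and 3926, TUBB2B 26.5 and 6768 and the neuronal isotype TUBB3 721 and 4137. TUBB2A and TUBB2B are near-identical copies, so that their probes may share signal. MAP7, a microtubule-binding protein of epithelia, was 798 and 31.1. EZR, the ezrin that ties membrane to actin, read 4204 and 10971, MYH10, a nonmuscle myosin, 372 and 1937, and the tropomyosin TPM1 659 and 149.

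In metabolism, lactate and glucose genes differed by isoform. LDHB was 53.7-fold higher in CD166+ cells, while LDHA, the subunit of glycolytic tissues, had a log2 fold of 0.38. The glucose transporter gene SLC2A3 read 1996 and 169.99 and ALDOC 842 and 152, and HK1, the first enzyme of glycolysis, 545 and 2703. Hypoxia response genes were higher in CD166+ cells for 8 of 17 and in CD166- cells for 2. BNIP3, a mitophagy receptor, read 1837 and 39.1 and DDIT4, an inhibitor of mTOR, 3747 and 477, but ANGPTL4, a lipase inhibitor, was 23.6 and 976, with a further probe at 73.1 and 127. Subunits of the respiratory chain were shifted mostly one way: 30 of 33 had a fold above 1, the median was 0.51, and 4 passed 2-fold. With median scaling, which moved all genes toward CD166+ cells, their median was 1.01 and 17 passed 2-fold.

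In nitrogen metabolism, beside GCHFR, CPS1, the entry enzyme of the urea cycle, was at 3165 in CD166+ and 167 in CD166- cells. ASS1, which makes the precursor of arginine, read 2962 and 295, and NOS3, which consumes arginine, 22.9 and 259. PHGDH, the first enzyme of serine synthesis, was 3.12-fold higher in CD166+ cells and the glutamine carrier SLC1A5 2.78-fold higher in CD166- cells. Aldehyde dehydrogenases went both ways: ALDH3A1 was detected in CD166+ cells alone, at 709, and ALDH1A1 in CD166- cells alone, at 4839, with ALDH1A3 at 226 and 992. Of 24 detected genes for glutathione enzymes and metallothioneins, 7 were higher in CD166+ cells against 9 in CD166- cells. The transferase GSTO2 read 415 and 34.2, toward CD166+ cells. GSTP1 read 280.01 and 5144, GSTM1 178 and 1250.2 and GSTM2 29.8 and 1119, all higher in CD166- cells, and the glutathione peroxidase GPX1 was 4403 and 779.8. The metallothioneins MT1E, MT1G, MT1X and MT2A, which bind zinc and copper, were 2.99-, 4.21-, 4.25- and 3.09-fold higher in CD166- cells, MT1M at least 10.6-fold, and MT1F alone was higher in CD166+ cells, at least 2.39-fold. Their sequences are much alike and their probes may share signal.

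Aldo-keto reductases and genes driven by NRF2, the factor of the oxidative stress response, gave 7 of 22 detected genes higher in CD166+ cells against 3 in CD166- cells, and 3 on each side in the scaled table. Beside AKR1C3, PIR, a nuclear iron protein, read 1226 and 163, and SLC7A11, the cystine carrier, 142 and 26.7. In lipid synthesis 4 of 26 detected genes were higher in CD166+ cells against 6 in CD166- cells, and 4 and 3 when the probes of a gene were averaged. The desaturase gene FADS1 read 1499.8 and 357, and ELOVL6, which lengthens fatty acids, 338 and 28.7.

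Genes for drug efflux and for handling gemcitabine, a first-line drug in pancreatic cancer, went both ways. Of 17 detected, 5 were higher in CD166+ cells against 3 in CD166- cells, and 9 stayed within 2-fold. CDA, cytidine deaminase, which inactivates the drug, read 1550.3 in CD166+ and 39.4 in CD166- cells, at least 37.3-fold higher. DCK, the kinase that activates it, was 244 and 74.5. SLFN11, which sensitises cells to DNA damage, read 535 and 45.8, an 11.7-fold difference. Of the efflux pumps, ABCC3 was 4.35-fold higher in CD166+ cells and ABCC4 and ABCC5 3.05- and 2.53-fold higher in CD166- cells.

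Cell cycle genes differed little beside these groups. Of 41 detected, 0 were over 2-fold higher in CD166+ cells against 4 in CD166- cells, with a median of -0.24 that became 0.079, with 6 and 1 genes, under median scaling. MKI67, a proliferation marker, read 167 and 251, CCNB1 527 and 622, and CCND1, cyclin D1, 1012 and 2246. CDK inhibitors differed far more. Of 21 detected genes on the list of CDK inhibitors, RB and p53 targets, 8 were higher in CD166+ cells against 2 in CD166- cells. CDKN2A, which encodes p16 and p14ARF and is often deleted in pancreatic cancer, read 1754 in CD166+ and 33.3 in CD166- cells, at least 42.2-fold higher, and a further probe of it read 961 and 23.6, while the remaining probe was detected on neither array. CDKN2B and MTAP, which lie beside CDKN2A, were likewise detected in CD166+ cells alone, at 129 and 331 against 27.9 and 32.1. In Panc-1 CD166+ and CD166- cells CDKN2A read 83.9 and 26.2, MTAP 45.9 and 30.6 and CDKN2B 25.7 and 27.8. The brightest genes found in SW1990 CD166+ cells alone mostly had a low signal in Panc-1 CD166+ cells, as given below. What part that has in these values was not tested. CDKN1A, which encodes p21, was 1763 and 108, and CDKN1C, which encodes p57, 939 and 74.3. The 2 members on the CD166- side were the p53 targets PLK2 and ZMAT3, 7.75- and 2.82-fold higher there. ZMAT3 read 185 and 158 by another of its probes, so that its side rests on the probe chosen.

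Genes of cell death and DNA repair were taken next. Of 18 detected BCL2 family genes 3 were higher in CD166+ cells against 2 in CD166- cells. HRK and BIK, which promote apoptosis, read 159.5 and 126 in CD166+ and 44.6 and 28.1 in CD166- cells. BID, another such gene, read 249 and 503, with its other probes the same way but within 2-fold. Of 17 DNA repair and SLFN genes, SLFN11 and FANCI were higher in CD166+ cells, FANCI of the Fanconi pathway at 551 against 252, and the polymerase gene POLQ in CD166- cells, at 255 against 569. The shares of this list over 2-fold, 11.8% and 5.88%, were below those of all detected genes.

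HOX genes, which set position along the body axis, gave 5 higher in CD166+ cells against 6 in CD166- cells of 16 detected, and 7 and 6 when the undetected side was left as measured. HOXC9, HOXC10, HOXC11 and HOXC13 were at 189, 106, 113 and 409.8 in CD166+ cells and at 22.6, 23.4, 25.6 and 74.5 in CD166- cells. HOXB2, HOXB5, HOXB6 and HOXB8 read 31.97, 290.03, 40.9 and 31.5 in CD166+ and 1047, 1756, 102 and 2502 in CD166- cells. Within the HOXB and HOXC clusters, HOXB7 and HOXC8 were the exceptions, 2.19-fold higher in CD166+ and 2.95-fold higher in CD166- cells. Among imprinted genes, H19 read 1171 and 135, SGCE 682 and 101, and SNRPN 21.9 and 356.

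Cancer-testis genes, silent in most adult tissues outside the germ line, were on the CD166+ side. Of 10 detected 7 were higher in CD166+ cells against 0 in CD166- cells, and all 7 belonged to the GAGE family, whose copies are near-identical, so that their probes may share signal. GAGE12G read 4230.3 and 52.6, and GAGE2A 1008 and 23.97. Lysosomal genes lay toward CD166- cells, with 9 of 28 higher there against 2 in CD166+ cells. The cathepsins CTSB, CTSH and CTSV were at 1564, 484 and 817 in CD166- cells against 353, 31.8 and 196, and the acid lipase LIPA at 3128 against 489. Of 26 detected chaperones and genes of the unfolded protein response, 3 were higher in CD166+ cells against 6 in CD166- cells. The largest folds ran toward CD166+ cells, where the heat shock genes HSPA1A and HSPB8 read 1104 and 372 against 23.1 and 21.97, and HSPA1A may share signal with its near-identical copy. HSPA5, the main chaperone of the endoplasmic reticulum, and PDIA4 were 2.80- and 3.06-fold higher in CD166- cells. Housekeeping genes gave 5 and 2 of 26 over 2-fold higher in CD166+ and CD166- cells and a median of 0.0069, with GAPDH at 11922 and 13062 and ACTB at 10607 and 19432.

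Some of the genes that differed lay side by side in the genome. With 10770 detected genes put in RefSeq order, there were 30 runs of 4 or more neighbours that all differed by over 2-fold in the same direction, 13 higher in CD166+ cells against 17 in CD166- cells, and they held 130 genes. Over all detected genes 27.7% were past 2-fold in either direction, and how many runs that share alone would give was not tested. One run on chromosome 15 held GCHFR, DNAJC17, ZFYVE19, RHOV and VPS18, and another on that chromosome TLN2, TPM1, LACTB, RPS27L and RAB8B, all higher in CD166+ cells. A run of S100A2, S100A16, S100A14 and S100A13 on chromosome 1 and one of the histone genes H2AC18, H4C15, H2AC19 and H2BC21 lay on the same side, the latter with near-identical copies. Higher in CD166- cells were a run on chromosome 7 from TBL2 to STX1A, with 6 genes, one on chromosome 16 from CMTR2 over CALB2 to AP1G1, with 6, and one on chromosome 21 with COL18A1, SLC19A1, COL6A1 and COL6A2.

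The chromosome itself went with the direction, as was seen after the values were known. Genes on chromosome 15 had a median log2 fold of 0.56 over 337 genes, against -0.0017 over all genes placed, and 31.5% of them were over 2-fold higher in CD166+ and 7.72% in CD166- cells. Chromosomes 7 and 22 were shifted the other way, with medians of -0.49 and -0.43 over 519 and 274 genes. On chromosome 7, 6.55% stood over 2-fold on the CD166+ side against 26.2% on the CD166- side, and for chromosome 22 the shares were 4.01% and 23.7%. The other 20 chromosomes examined had medians between -0.25 and 0.22. In 4 successive blocks with near-equal numbers of genes, the medians of each of these chromosomes had the same sign. They were 0.23, 0.88, 0.56 and 0.50 for chromosome 15, -0.36, -0.48, -0.52 and -0.56 for chromosome 7, and -0.60, -0.37, -0.48 and -0.28 for chromosome 22. The first block of chromosome 15, at 0.23, was close to the 0.22 reached among the other chromosomes. Among genes detected on both arrays the medians of chromosomes 15, 7 and 22 were 0.63, -0.57 and -0.43. In Panc-1 all 23 chromosomes lay between -0.048 and 0.060. Over 8107 genes detected on all arrays, the median difference from the Panc-1 mean on chromosome 15 was 0.14 for SW1990 CD166+ and -0.47 for SW1990 CD166- cells. In the same order it was -0.29 and 0.33 on chromosome 7 and -0.22 and 0.35 on chromosome 22. Other chromosomes lay as far from Panc-1 in both SW1990 populations, such as chromosome 9 at 0.59 and 0.52 and chromosome 21 at 0.32 and 0.63. Genes of the same chromosome share their array, and what lies behind the shifts was not tested.

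**Figure D5:**
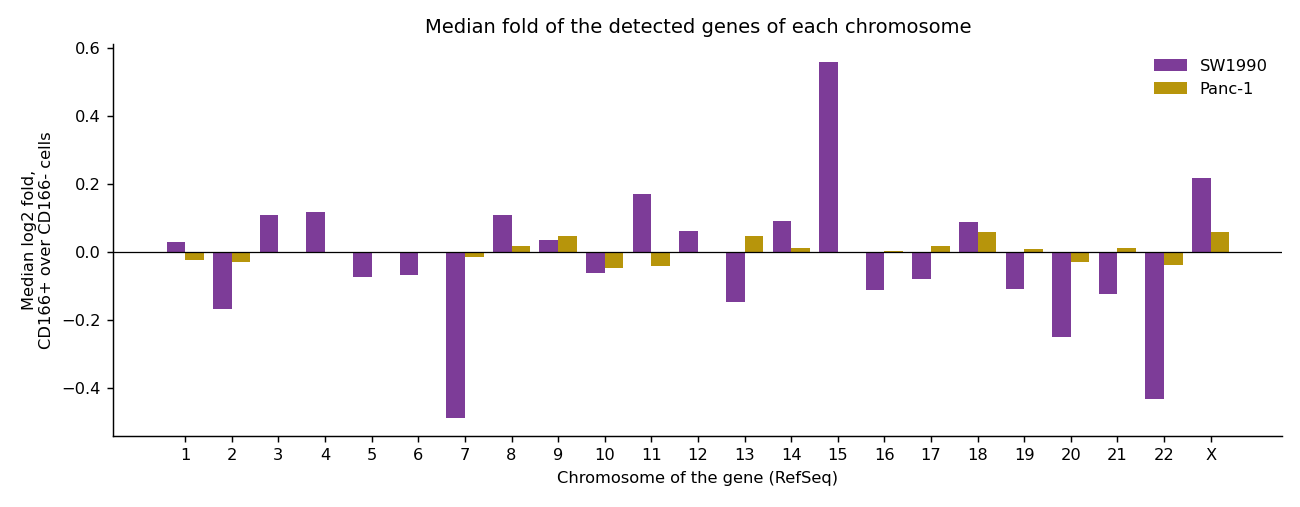
Median log2 fold, CD166+ over CD166- cells, of the detected genes of each chromosome, for SW1990 (purple bars) and Panc-1 (ochre bars), with the chromosome of each gene taken from RefSeq. In SW1990 chromosome 15 stands at 0.56, chromosome 7 at -0.49 and chromosome 22 at -0.43, while all Panc-1 bars lie near 0.

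Promoters of the genes detected on 1 array alone differed in composition from the rest. The ratio of observed to expected CpG, which is high in CpG islands, had a median of 0.69 for 405 genes found over 2-fold in CD166+ cells alone, 0.76 for 268 found in CD166- cells alone, and 0.85 for 6338 genes within 2-fold. The letters TATAAA, on either strand, stood in 13.1%, 7.09% and 5.25% of these promoters, and in 11.95% of all promoters of the table. In all, 8670 of the detected genes had a promoter in the RefSeq table.

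Levels in Panc-1 were set beside those of SW1990 as a description, since the difference between the lines has 1 array a population and was not tested. Of the 1462 genes higher in SW1990 CD166+ cells, 38 were also over 2-fold higher in Panc-1 CD166+ cells and 6 in Panc-1 CD166- cells, which is 2.60% and 0.410% beside 0.598% and 0.408% of all genes detected in Panc-1. Of the 1530 genes higher in SW1990 CD166- cells, 12 and 7 were over 2-fold higher in Panc-1 CD166- and CD166+ cells, or 0.784% and 0.458%. Of the 519 genes over 2-fold apart and found in SW1990 CD166+ cells alone, 46.2% were detected on both Panc-1 arrays and 39.9% on neither. For the 383 such genes found in CD166- cells alone the shares were 68.7% and 24.3%, and for genes within 2-fold 84.96% and 9.88%. The brightest of the former had a low signal in Panc-1 CD166+ cells. Of 40 genes found in SW1990 CD166+ cells alone at a signal of 1000 or more, 38 were detected in Panc-1 CD166+ and 17 in Panc-1 CD166- cells, and the former signal was, in the median, 5.37% of that in SW1990 CD166+ cells. Of these 40 genes, 14 were over 2-fold higher in Panc-1 CD166+ and 0 in Panc-1 CD166- cells. FOLR1, GAGE12C and KYNU, for example, read 124, 166 and 151 in Panc-1 CD166+ cells and 28.6, 26.7 and 20.9 in Panc-1 CD166- cells. On the other side, 32 genes were found in SW1990 CD166- cells alone at a signal of 1000 or more. Of these, 24 were detected in Panc-1 CD166+ and 23 in Panc-1 CD166- cells, and 1 and 0 were over 2-fold higher there. Among the 38 genes higher in CD166+ cells of both lines, 21 had a Panc-1 CD166+ signal under 10% of that in SW1990, and what part this low shared signal has in them was not tested.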

How the data were processed

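Total RNA of cultured SW1990 and Panc-1 cells, separated on CD166, was hybridized to HumanHT-12 v4 bead arrays, with 1 array for each population. The authors deposited a table of bead intensities without normalization, with a detection p-value for each probe, and a table of intensity values they had scaled. Both came from BeadStudio 3.2.3 according to the submitters' processing notes. The sources used here do not name the kind of scaling, and the mean of the scaled values was 353.8 on each of the 4 arrays. Here the intensity table was corrected for background, quantile normalized over all 4 arrays and put on the log2 scale with limma's neqc (R 4.3.3, limma 3.58.1, offset 16), which takes the background from the detection p-values. The scaled table served as an alternative. Of 47315 probes 30111 had 1 gene in the platform annotation, 8 had several and 17196 were unnamed here. The probe with the highest mean signal stood for a gene. Folds, counts and lower bounds were computed in Python 3.11.15 with pandas 2.3.3 and checked on simulated data. With 1 array a side no test was run.

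Genes named in the text were the markers given for the comparison, genes the study followed by PCR or flow cytometry, the 15 largest folds and the 15 largest lower bounds in each direction, the 10 brightest genes past 2-fold, up to 5 members of each list with the largest folds, and members of runs of neighbours. List members named with smaller folds, members that ran against their list and the chromosome medians were chosen after their values were seen. The members and lists were chosen with earlier results of these data known. Alternatives concerned background correction, offset, scaling, the arrays normalized together, the table, the detection filter, the probe rule, the lower bound and the fold threshold. Promoters are the RefSeq windows of GRCh38.p14, matched by gene symbol or gene ID.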

Additional observations from a re-analysis of the deposited data

Results flagged for a closer look

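Among the genes named, 3 differed by over 2-fold one way in SW1990 and the other way in Panc-1. Each population had 1 array, and no test of this contrast between the lines could be made. ADIRF, an adipogenesis regulatory factor, had a log2 fold, CD166+ over CD166- cells, of -6.49 in SW1990, with signals of 24.7 and 3501, and of 1.97 in Panc-1, with 1167 and 298. H19, an imprinted noncoding RNA, had 3.12 in SW1990, with 1171 and 135, and -1.04 in Panc-1, with 741 and 1526. HSPA2, a chaperone of the HSP70 family, had 1.19 in SW1990 as a lower bound, with 94.7 and 26.1, and -1.44 in Panc-1, with 65.3 and 178. Over all detected genes 13 lay in opposite directions in this way.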

How the results depend on the processing

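No paired analysis was possible because each population had 1 array, and for the same reason no array could be left out. Without background correction 875 genes passed 2-fold toward CD166+ cells against 934 in CD166- cells, and the ALCAM log2 fold was 1.63. With an offset of 50 ALCAM was at 2.01. With median scaling 2218 genes were higher in CD166+ cells, or 65.95% of those past 2-fold. In the scaled table they were 917, or 42.9%, with ALCAM at 1.63 and a median of all genes of -0.10. A threshold of 1.5-fold gave 2567 and 2709 genes, and one of 3-fold 691 and 702, in CD166+ and CD166- cells. The cause of these shifts was not tested beyond the construction of each setting. Under the other alternatives the counts stayed within 1.5 times those reported, and no gene past 2-fold under both settings changed direction. Of 55 lists 9 changed the side with more genes past 2-fold in at least 1 of 9 settings, among them integrins, chemokines, HOX and mesenchymal genes. The median of chromosome 15 less that of all genes, an addition made after the data were seen, ran from 0.38 to 0.65, that of chromosome 7 from -0.54 to -0.34 and that of chromosome 22 from -0.52 to -0.31. Signals close to the floor of an array limit the folds of dim genes to lower bounds.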

Other observations

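Over all 10747 pairs of neighbours in RefSeq order, the log2 folds of SW1990 had a correlation of 0.166, against 0.122 over 8713 pairs in Panc-1, as a description across pairs that share their arrays.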
